A study of Mus musculus with 2 samples.

Results

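The 6 genes described here encode the invariant chain (Cd74), the peptide-binding chains H2-Aa, H2-Ab1 and H2-Eb1, and the peptide-exchange chains H2-DMa and H2-DMb1 of the mouse class II major histocompatibility complex (MHC). They were chosen by name, as 6 of the 13418 genes listed in either of 2 single-cell RNA libraries of mouse hippocampus, and all 6 are among the 12744 genes listed in both. One library came from GlaKO mice, a model of Fabry disease in which the gene for the lysosomal enzyme alpha-galactosidase A (Gla) is knocked out, and the other from wt littermates, all 57 weeks old. Neither the sex, the strain nor the number of animals per library is given in the sources used here. The labels' protocols describe saline perfusion, enzymatic dissociation of the hippocampi, a debris gradient, a 7-AAD sort for viable cells and a load of 10000 cells per sample.

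Class II molecules present peptides taken up from outside the cell to CD4+ T cells. An alpha and a beta chain (H2-Aa with H2-Ab1 in H2-A, and H2-Eb1 as the beta chain of H2-E) assemble in the endoplasmic reticulum around the invariant chain, which blocks the peptide groove and guides the complex to endosomes. There cathepsins cut the invariant chain down to a short remnant, and the heterodimer of H2-DMa and H2-DMb1 exchanges that remnant for antigenic peptide. Dendritic cells, B cells and macrophages at the borders of the brain carry class II constitutively, whereas microglia, the macrophages of the brain tissue itself, have little in the healthy brain and can acquire it when activated, classically by interferon-gamma through the transactivator encoded by Ciita.

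In the GENCODE vM21 annotation of GRCm38, H2-DMa (chr17:34119541-34139101, plus strand), H2-DMb1 (chr17:34153072-34160230, plus strand), H2-Ab1 (chr17:34257689-34269419, plus strand), H2-Aa (chr17:34282744-34287823, minus strand) and H2-Eb1 (chr17:34305867-34316674, plus strand) lie in 1 block of chromosome 17. H2-DMb1 is counted with some uncertainty, because 51 of the 410 windows of 91 bases at its 3' end (12.4%) also occur in transcripts of its neighbour and near copy H2-DMb2. No other pair of the listed class II genes shared such a window. H2-DMa overlaps CR974462.3 on the same strand and Brd2 on the other, and H2-Eb1 overlaps the antisense gene Gm20513, and whether the authors' counting used the strand is not given in the sources used here.

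Class II promoters are known for an X box and a Y box at close and nearly fixed spacing, read by the RFX and NF-Y factors that recruit the Ciita product, and stretches around these letters are shown because the 6 genes are described together. They come from RefSeq promoter entries (GRCm38.p6), which matched 4 of the 6 genes, and run 5′ to 3′ along the gene's own strand. Capitals mark the Y box letters TGATTGG and, before them, the X box letters CNNATGATG or, in H2-Aa, TGACGTCA, the letters of a cyclic AMP response element. The motifs were chosen after the sequences were seen.
H2-Aa, chr17:34287855-34287909, minus strand: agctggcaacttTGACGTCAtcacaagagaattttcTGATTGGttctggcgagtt
H2-Eb1, chr17:34305768-34305824, plus strand: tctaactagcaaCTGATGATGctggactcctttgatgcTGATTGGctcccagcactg
H2-DMb1, chr17:34153089-34153146, plus strand: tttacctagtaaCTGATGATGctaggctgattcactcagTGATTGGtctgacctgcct
H2-DMb2, chr17:34145118-34145175, plus strand: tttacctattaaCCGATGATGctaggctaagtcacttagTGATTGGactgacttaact
Between the capitals lie 16 bases in H2-Aa, 17 in H2-Eb1 and 18 in both H2-DMb genes. Searched on both strands of all 32851 promoter entries of 300 bases, TGATTGG was present in 7.82%, TGACGTCA in 1.79% and CNNATGATG in 2.75%. Of all entries, 5 (0.0152%) had the X box letters followed by the Y box letters within 40 bases, namely those of the class II genes H2-Eb1, H2-DMb1, H2-DMb2 and H2-Ob, and that of Fthl17f. The promoter entries of H2-DMa held none of the 3 motifs in this window. Those entries, and the stretches of H2-DMb1 and H2-DMb2, lie inside the GENCODE spans of their genes, so that RefSeq and GENCODE starts differ there. Other starts of H2-DMa were not searched.

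The libraries held 29914106 unique molecular identifiers (UMIs, each counted as 1 captured transcript) over 4572 GlaKO barcodes and 31929688 over 5443 wt barcodes, with medians of 6101 and 5054 UMIs, and 6 barcode sequences occurred in both. After removal of called doublets 4513 GlaKO and 5417 wt cells remained and were clustered without the class II genes. The cell make-up differed: choroid plexus epithelium was 17.7% of GlaKO against 47.8% of wt cells, microglia were 16.1% against 8.21%, and endothelial cells numbered 1 against 72. Gla itself had 220 UMIs in GlaKO and 396 in wt cells, but a 3' tag need not lie in the deleted part and so does not check the genotype. With 1 library per genotype there are no replicates and no test: every difference below is one between 2 libraries, and each 95% interval covers counting error only and takes UMIs as independent, which UMIs packed into few cells are not. Levels are UMIs summed over a class and divided by the class total (CPM, counts scaled as UMIs per 1000000). They are not scaled by transcript length, since 3' counting yields 1 UMI per transcript end.

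The most abundant of the 6 transcripts, Cd74, was concentrated in very few cells. At least 10 Cd74 UMIs were found in 83 of the GlaKO cells (1.84%, interval 1.47 to 2.28%) and 44 of the wt cells (0.812%, 0.591 to 1.09%), and these cells held 95.5% of all Cd74 UMIs in GlaKO and 97.0% in wt. By class, the 83 GlaKO cells were 39 microglia, 25 border macrophages, 18 B cells and 1 cell of the choroid plexus class that also had 14 UMIs of B cell markers. The 44 wt cells were 2 microglia, 29 border macrophages and 13 B cells. As classes, border macrophages and B cells thus gave nearer numbers of such cells in the 2 libraries than microglia did. The border macrophage class was mixed, however. Of its cells with at least 10 Cd74 UMIs, 13 GlaKO and 20 wt cells had at least 3 UMIs of the class's markers. The other 12 GlaKO and 9 wt cells had fewer, a split made after the values were seen. Microglia with at least 10 Cd74 UMIs held 24.0% of the Cd74 UMIs of the GlaKO library and 0.352% of those of wt.

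The peptide-binding chains were spread over the same classes. At least 10 UMIs of H2-Aa were found in 50 GlaKO cells, of which 16 were microglia, and in 34 wt cells, of which 0 were. For H2-Ab1 there were 52 such cells with 19 microglia in GlaKO, against 34 with 0 microglia in wt. For H2-Eb1 there were 53 with 17 microglia in GlaKO, against 31 with 0 microglia in wt. The H2-DM chains were sparser per cell: 14 GlaKO and 8 wt cells had 10 or more H2-DMa UMIs, and 12 GlaKO and 9 wt cells had as many of H2-DMb1, most of them border macrophages.

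**Figure D1:**
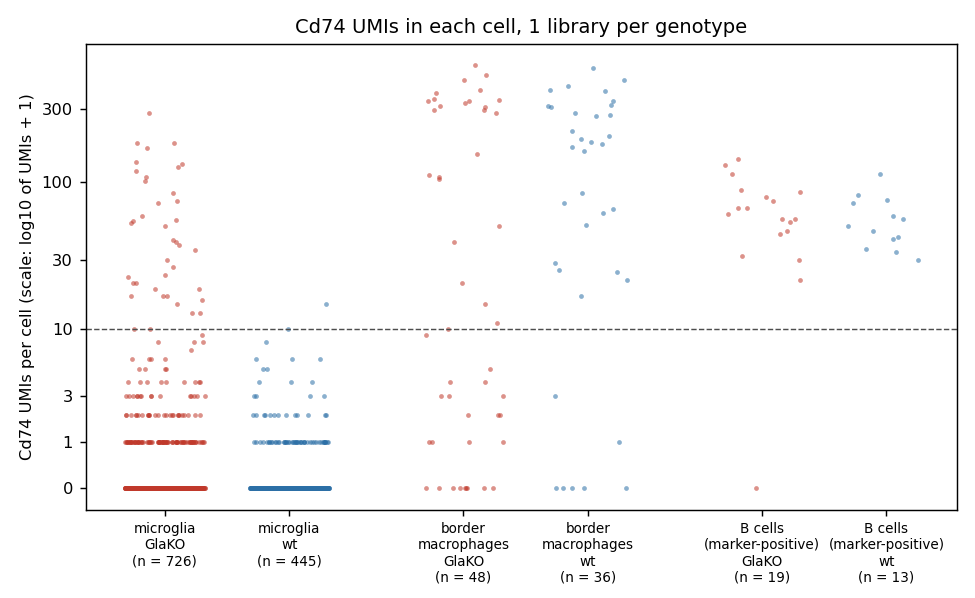
Cd74 UMIs in each cell of microglia, border macrophages and marker-positive B cells, GlaKO left of wt; the axis is log10 of UMIs + 1, each point is 1 cell and the dashed line marks 10 UMIs. GlaKO microglia reach 283 UMIs and wt microglia 15, while border macrophages reach 585 in GlaKO and 562 in wt.

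In microglia the invariant chain and the 3 peptide-binding chains were all at least 8-fold higher in the GlaKO library, and the H2-DM chains were not. Cd74 had 2805 UMIs (591 CPM) in 726 GlaKO microglia and 160 UMIs (65.8 CPM) in 445 wt microglia. H2-Aa had 446 UMIs (94.0 CPM) in GlaKO against 3 UMIs (1.23 CPM) in wt microglia. H2-Ab1 had 636 UMIs (134 CPM) in GlaKO and 37 UMIs (15.2 CPM) in wt microglia, and H2-Eb1 had 540 UMIs (114 CPM) in GlaKO and 5 UMIs (2.06 CPM) in wt microglia.
On the log2 scale the GlaKO over wt ratio was 3.17 for Cd74 (2.94 to 3.41), 6.25 for H2-Aa (4.70 to 8.54), 3.14 for H2-Ab1 (2.66 to 3.66) and 5.79 for H2-Eb1 (4.56 to 7.42). The intervals of H2-Aa and H2-Eb1 are wide because wt microglia held so few of their UMIs. Of the 7154 genes with a summed count of at least 100 in microglia, 4 (0.0559%) were at least 8-fold higher in GlaKO, and these were Cd74, H2-Aa, H2-Ab1 and H2-Eb1. H2-Aa, H2-Ab1 and H2-Eb1 reached this count only through their GlaKO UMIs, so the limit in part fixed their place here. Most GlaKO UMIs of the 4 genes lay in the same 39 cells (2502 of Cd74, 426 of H2-Aa, 563 of H2-Ab1 and 511 of H2-Eb1). They are therefore not 4 separate results. At least 1.5-fold higher were 170 genes (2.38%), again with 4 of the 6 class II genes among them, and 104 (1.45%) were at least 1.5-fold lower, with 0 of the 6. The median log2 ratio was 3.15 over the 6 genes and −0.02 over all 7154.

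H2-DMa, the alpha chain of the peptide exchanger, had 1030 UMIs (217 CPM) in GlaKO and 373 UMIs (153 CPM) in wt microglia, a log2 ratio of 0.50 (0.33 to 0.68). Its partner H2-DMb1 had 544 UMIs (115 CPM) in GlaKO and 274 (113 CPM) in wt microglia, a log2 ratio of 0.03 (−0.19 to 0.24), an interval that includes equal levels. Both were present in a large share of microglia of either library. H2-DMa was seen in 63.4% of GlaKO against 47.9% of wt microglia, and H2-DMb1 in 46.0% against 44.0%. The GlaKO microglia were deeper, with a median of 6435.5 UMIs against 5364 in wt. With each cell thinned to 1000 UMIs, the shares were 17.9% against 13.9% for H2-DMa and 11.4% against 9.89% for H2-DMb1. Summed over the 6 genes, microglia had 6001 UMIs in GlaKO and 852 in wt, a log2 ratio of 1.85 (1.75 to 1.96).

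The extra Cd74 of GlaKO microglia lay in a tail of the cells. Of the GlaKO microglia, 538 had no Cd74 UMI, 112 had 1 to 2, 24 had 3 to 4, 13 had 5 to 9, 11 had 10 to 19, 10 had 20 to 49, 8 had 50 to 99 and 10 had 100 or more. Of the wt microglia, 368 had none, 62 had 1 to 2, 7 had 3 to 4, 6 had 5 to 9 and 2 had 10 to 19. The share with at least 10 was 5.37% in GlaKO (3.85 to 7.27%) and 0.449% in wt (0.0545 to 1.61%). Just below this limit, at 8 or 9 UMIs, stood 4 GlaKO cells and 1 wt cell, and just above it, at 10 to 12, stood 2 GlaKO cells and 1 wt cell. No single cell carried the sum: the highest held 10.1% of the Cd74 UMIs of GlaKO microglia and 9.38% of those of wt.
Any Cd74 UMI at all was found in 25.9% of GlaKO and 17.3% of wt microglia (11.6% and 4.72% after thinning). For comparison, 3.59% of GlaKO oligodendrocytes, with a median of 6708 UMIs, and 1.18% of wt oligodendrocytes, with a median of 5819 UMIs, had one. Free RNA can give UMIs in cells that do not express the gene, so single Cd74 UMIs are not read as expression here.

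With the cells of 10 or more Cd74 UMIs left out, the rest of the microglia (687 GlaKO and 443 wt cells) still held more H2-Aa, H2-Eb1 and H2-DMa in the GlaKO library, while the intervals of Cd74, H2-Ab1 and H2-DMb1 included equal levels. Cd74 had 303 UMIs in GlaKO and 135 in wt cells, a log2 ratio of 0.29 (−0.01 to 0.59). H2-Ab1 had 73 and 34 UMIs, a log2 ratio of 0.22 (−0.38 to 0.86). H2-Aa had 20 UMIs in GlaKO cells and 1 in wt cells, a log2 ratio of 3.44 with an interval of 0.80 to 8.82, and H2-Eb1 had 29 and 5, a log2 ratio of 1.66 (0.27 to 3.38). Those 2 ratios rest on very few counts. In GlaKO cells without a Cd74 UMI, H2-Aa was found in 1.12% of microglia and 1.13% of all cells, and H2-Eb1 in 1.30% and 1.68%. In wt the shares were 0.272% and 0.497% for H2-Aa, and 0.815% and 0.726% for H2-Eb1. Such UMIs are not read as expression by microglia, and the part of free RNA in the 2 ratios was not tested. The ratio of H2-DMa was 0.36 (0.18 to 0.54) and that of H2-DMb1 −0.16 (−0.38 to 0.06), and that of the 6 genes summed was 0.22 (0.10 to 0.34). These cells were set apart by Cd74 itself, so a lower Cd74 ratio among them follows in part from the choice.

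**Figure D2:**
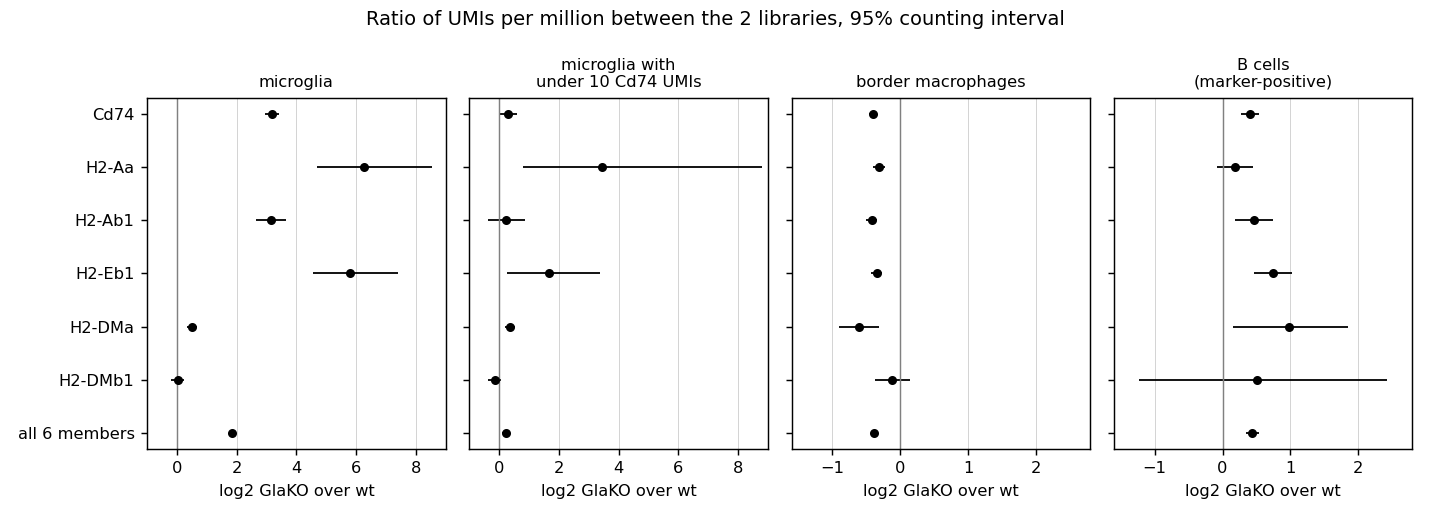
Log2 ratio of GlaKO over wt CPM for each gene and for the sum of the 6, with 95% counting intervals, in 4 groups of cells; the 2 microglia panels share an axis, as do the other 2. In microglia 4 genes stand at 3.14 or above, in border macrophages all 6 stand below 0, and in marker-positive B cells all 6 stand above 0.

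The genes were found together in the same microglia. Of the 39 GlaKO microglia with at least 10 Cd74 UMIs, 30 had H2-Aa (76.9%), 35 had H2-Ab1 (89.7%), 35 had H2-Eb1, and 29 (74.4%) had all 3 peptide-binding chains. H2-DMa was found in 36 of them and H2-DMb1 in 35. Per cell they had a median of 40 Cd74 UMIs (10 to 283), 6 of H2-Aa, 8 of H2-Ab1, 7 of H2-Eb1, 3 of H2-DMa and 2 of H2-DMb1. In the 538 GlaKO microglia without a Cd74 UMI, H2-Aa was found in 6 cells, H2-Ab1 in 28 and H2-Eb1 in 7, whereas H2-DMa was found in 327 (60.8%) and H2-DMb1 in 226 (42.0%). In the 368 wt microglia without a Cd74 UMI the counts were 1 for H2-Aa, 15 for H2-Ab1, 3 for H2-Eb1, 164 (44.6%) for H2-DMa and 156 (42.4%) for H2-DMb1. The H2-DM chains were thus common in microglia where the other class II transcripts were not seen. The 2 wt microglia with 10 and 15 Cd74 UMIs had 2 UMIs of H2-Aa, 3 of H2-Ab1 and 0 of H2-Eb1 between them.
Over the 41 microglia with at least 10 Cd74 UMIs from both libraries, the Spearman correlation of a gene's share of the cell's UMIs with that of Cd74 was 0.92 for H2-Ab1, 0.88 for H2-Eb1 and 0.86 for H2-Aa, but 0.43 for H2-DMa and 0.29 for H2-DMb1. These values describe cells that share a library and each cell's depth, and the correlation of Cd74 with total UMIs was 0.10.

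The microglia with high Cd74 were checked against markers of the other cells that carry class II, of which the files hold 5 of 9 for border macrophages, 4 of 8 for B cells, 3 of 9 for dendritic cells and 5 of 7 for monocytes. The summed UMIs of 10 microglia markers had a median of 138 (12 to 443) in the 39 GlaKO cells and 128 in the other 687. P2ry12, a purinergic receptor typical of microglia, was found in 94.9% of the 39 and 98.5% of the others, Tmem119 in 89.7% and 97.2%, and the microglial transcription factor gene Sall1 in 64.1% and 64.0%. Of the border macrophage markers, Mrc1, Ms4a7 and Pf4 were at 0 in all 39. The summed border macrophage markers, which include Stab1, ranged from 0 to 4 UMIs, and 3 of the 39 cells had at least 3, against 39 of the 687. B cell markers reached 3 UMIs in 1 of the 39 cells, which had 15, dendritic cell markers in 1 of the 39 against 5 of the 687, and monocyte and T cell markers in 0 of the 39. The 39 cells were deeper, with a median of 8247 UMIs against 6359 in the others, and had a median doublet score of 0.0238 against 0.0149. The part of depth and of joined cells in these results was not tested beyond the alternatives given in the closing section.

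The border macrophage class, named from markers such as Mrc1 and Pf4, had the highest level of each of the 6 genes in both libraries. Not all of its cells carried those markers. Among cells with at least 10 Cd74 UMIs but under 3 marker UMIs, Pf4 was found in 0 of 12 GlaKO and 3 of 9 wt cells. The monocyte marker Plac8 was found in 9 and 2 of them. In the whole class 5 of the 6 levels were lower in the GlaKO library, with the whole counting interval of the ratio below 0. The class held 48 GlaKO and 36 wt cells, and its make-up differed between the libraries, as described below. Cd74 had 6216 UMIs (20067 CPM) in GlaKO and 6133 UMIs (26633 CPM) in wt cells, a log2 ratio of −0.41 (−0.46 to −0.36). H2-Aa stood at 7396 CPM in GlaKO and 9189 in wt, H2-Ab1 at 8116 and 10856, and H2-Eb1 at 7732 and 9827, with log2 ratios of −0.31, −0.42 and −0.35. H2-DMa stood at 604 CPM in GlaKO and 921 in wt (−0.61, interval −0.90 to −0.32) and H2-DMb1 at 910 and 990 (−0.12, −0.38 to 0.14). Of the 6 genes, 0 were at least 1.5-fold higher and 1, H2-DMa, was at least 1.5-fold lower, where 11.1% and 5.46% of the 732 genes measured in this class were. The median log2 ratio was −0.38 over the 6 genes and 0.05 over the 732.

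The class was mixed. At least 10 Cd74 UMIs were found in 25 of the 48 GlaKO cells (52.1%) and 29 of the 36 wt cells (80.6%). Those cells held 6175 Cd74 UMIs in GlaKO and 6129 in wt, which are near-equal sums. All UMIs of the class came to 309762 in GlaKO and 230279 in wt. The ratios of the whole class are therefore no measure of the level in those cells, which is not reported here. Cells with fewer Cd74 UMIs numbered 23 in GlaKO and 7 in wt. Of these, F13a1 was found in 17 GlaKO cells (950 CPM) and 0 wt cells, and Mrc1 in 16 and 6. The part of this make-up in the ratios of the whole class was not tested. With the class split, after the values were seen, by at least 3 UMIs of Mrc1, Pf4, F13a1, Ms4a7 and Stab1, the sum of the 6 genes was lower in GlaKO on both sides. In the 31 GlaKO and 26 wt cells with these markers the log2 ratio was −0.25 for Cd74 (−0.32 to −0.18) and −0.32 for the sum (−0.37 to −0.28), and in the 17 GlaKO and 10 wt cells with fewer marker UMIs it was −0.69 for Cd74 (−0.77 to −0.62) and −0.56 for the sum (−0.61 to −0.50). The split did not even out the cells with few Cd74 UMIs. At least 10 were found in 13 of the 31 GlaKO and 20 of the 26 wt cells with these markers. On the other side they were found in 12 of the 17 GlaKO and 9 of the 10 wt cells. The lower sums on both sides therefore do not give the level in cells with at least 10 Cd74 UMIs. Markers of other myeloid cells also differed between the libraries. Monocyte markers reached 3 UMIs in 15 of the 25 GlaKO and 6 of the 29 wt cells with at least 10 Cd74 UMIs, and dendritic cell markers in 4 and 2. The part of these cells in the ratios was not tested. Over the 54 border macrophages with at least 10 Cd74 UMIs, the Spearman correlation with Cd74 was 0.86 for H2-Eb1, 0.85 for H2-Aa and 0.78 for H2-Ab1, and 0.60 for H2-DMa and 0.59 for H2-DMb1. Total UMIs also correlated with Cd74 in these cells, at 0.71.

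B cells, which present antigen taken up through their receptor, came next in level for all of the genes but H2-DMb1, which was higher in microglia. The cluster that led with B cell genes had 55 GlaKO and 58 wt cells, but only 19 and 13 had at least 3 UMIs of B cell markers, and values are given for those. Cd74 had 1250 UMIs (13574 CPM) in GlaKO and 742 UMIs (10225 CPM) in wt B cells, a log2 ratio of 0.41 (0.28 to 0.54). H2-Aa stood at 3106 CPM in GlaKO and 2742 in wt (0.18, −0.09 to 0.45), H2-Ab1 at 3301 and 2398 (0.46, 0.19 to 0.74), and H2-Eb1 at 3725 and 2232 (0.74, 0.47 to 1.02). H2-DMa stood at 489 and 248 CPM (0.98, 0.16 to 1.85). H2-DMb1 had only 9 UMIs in GlaKO and 5 in wt, a log2 ratio of 0.50 (−1.23 to 2.43). At least 10 Cd74 UMIs were found in 18 of 19 GlaKO and 13 of 13 wt B cells, with medians of 61 and 51 UMIs over all of them. H2-DMb2, the near copy of H2-DMb1, is listed for the GlaKO library alone, where 50 of its 111 UMIs lay in the B cells (543 CPM), so that in GlaKO B cells the H2-DM beta chain was counted mostly as H2-DMb2.

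**Figure D3:**
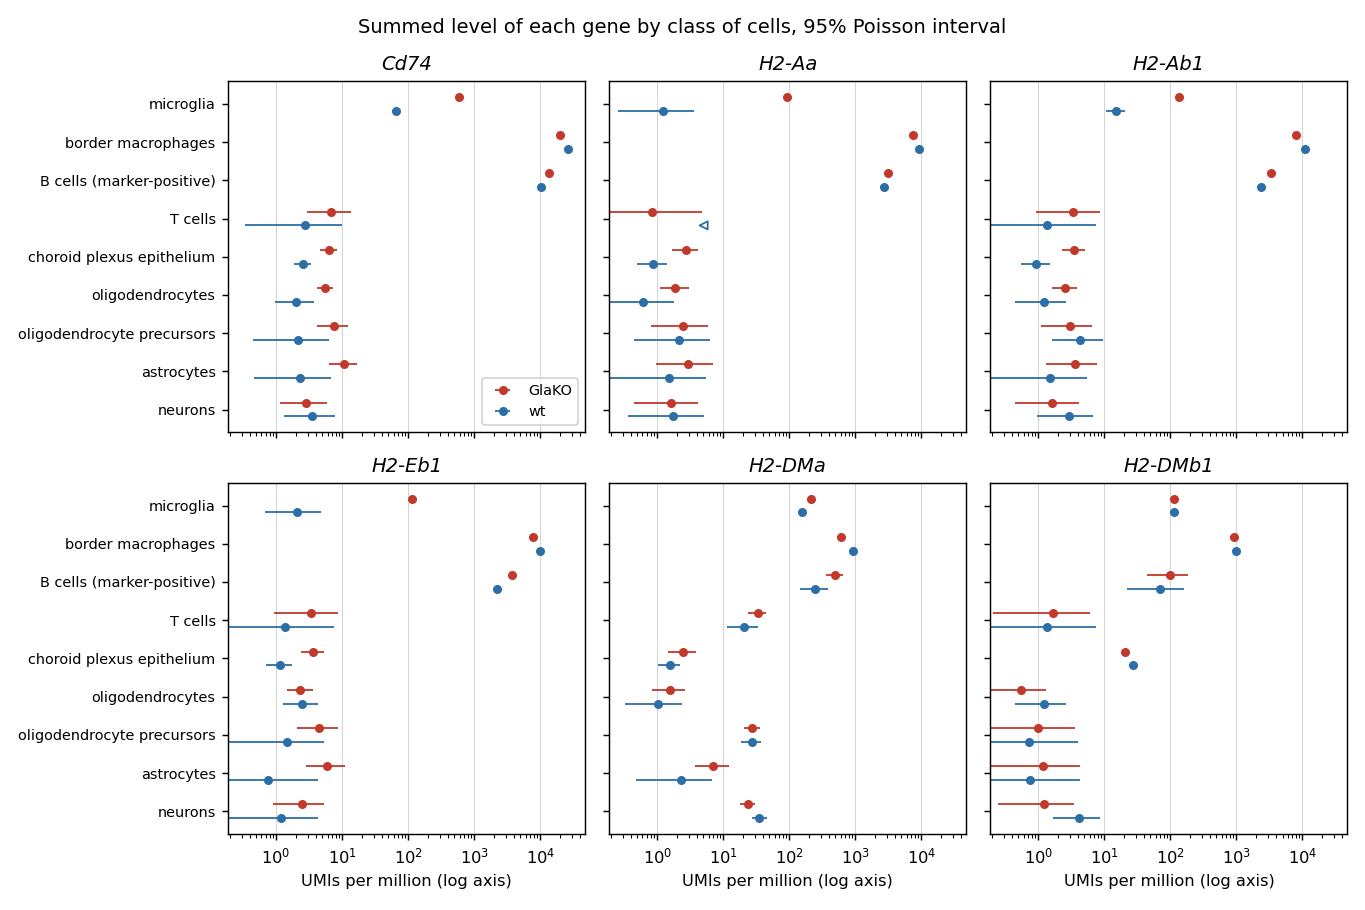
Summed level of each gene in 9 classes of cells, in CPM on a log axis, GlaKO above wt, with 95% Poisson intervals; an open triangle marks the upper limit where the count is 0. Cd74 and the peptide-binding chains stand apart in border macrophages and B cells, and H2-DMa and H2-DMb1 also appear in neurons or in choroid plexus epithelium.

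In neurons, oligodendrocyte precursors, T cells and choroid plexus epithelium the order of the genes changed, and an H2-DM chain led. H2-DMa also led in wt microglia. In neurons, H2-DMa stood at 23.4 CPM in GlaKO (17.8 to 30.3) and 35.3 in wt (27.0 to 45.5), and was found in 13.1% and 15.3% of the cells at median depths of 5827 and 4578 UMIs, while Cd74 stood at 2.83 and 3.53 CPM. It was the 1 class II gene with a summed count of at least 100 in neurons, and it was at least 1.5-fold lower in GlaKO, where 1.51% of genes were. Oligodendrocyte precursors were close to this, with 27.5 CPM in GlaKO and 26.8 in wt, and T cells had 33.1 and 20.6 CPM. The level of H2-DMa was much lower in oligodendrocytes, at 1.55 CPM in GlaKO and 1.01 in wt, where it was found in 1.05% and 0.471% of cells. H2-DMa overlaps CR974462.3 and Brd2, and whether counts were split between them was not tested.
In choroid plexus epithelium H2-DMb1 stood at 20.9 CPM in GlaKO (17.7 to 24.4) and 27.4 in wt (25.01 to 29.9), and was found in 16.1% and 16.8% of cells (2.75% and 2.62% after thinning to 1000 UMIs). Oligodendrocytes had H2-DMb1 in 0.374% of GlaKO and 0.707% of wt cells. Cd74 stood at only 6.37 CPM in the GlaKO and 2.53 in the wt choroid plexus, and 23 of the 47 GlaKO UMIs lay in the 1 cell with B cell markers. Within the choroid plexus class H2-DMb1 differed between clusters in both libraries, at 5.69 and 4.66 CPM in the lowest of 4 clusters and 36.5 and 65.4 CPM in one of the highest. In T cells, oligodendrocytes, oligodendrocyte precursors, astrocytes and neurons, Cd74 stood between 2.83 and 10.7 CPM in GlaKO and between 2.03 and 3.53 CPM in wt.

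The make-up of the class II transcripts differed between the classes of cells. In border macrophages Cd74 was 44.8% of the UMIs of the 6 genes in GlaKO and 45.6% in wt and H2-Ab1 18.1% and 18.6%. In marker-positive B cells Cd74 was 55.9% in GlaKO and 57.1% in wt. Over all microglia Cd74 was 46.7% in GlaKO and 18.8% in wt. In the 39 GlaKO microglia with at least 10 Cd74 UMIs, a limit that itself favours a high Cd74 share, Cd74 was 58.8%, H2-Ab1 13.2%, H2-Eb1 12.01% and H2-Aa 10.0%. In the other microglia H2-DMa led, with 50.1% in GlaKO and 45.4% in wt, before H2-DMb1 with 25.5% and 33.2%. The UMIs of the 3 peptide-binding chains per Cd74 UMI came to 0.600 in the GlaKO microglia with high Cd74, to 1.16 in GlaKO and 1.12 in wt border macrophages, and to 0.746 in GlaKO and 0.721 in wt B cells.

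**Figure D4:**
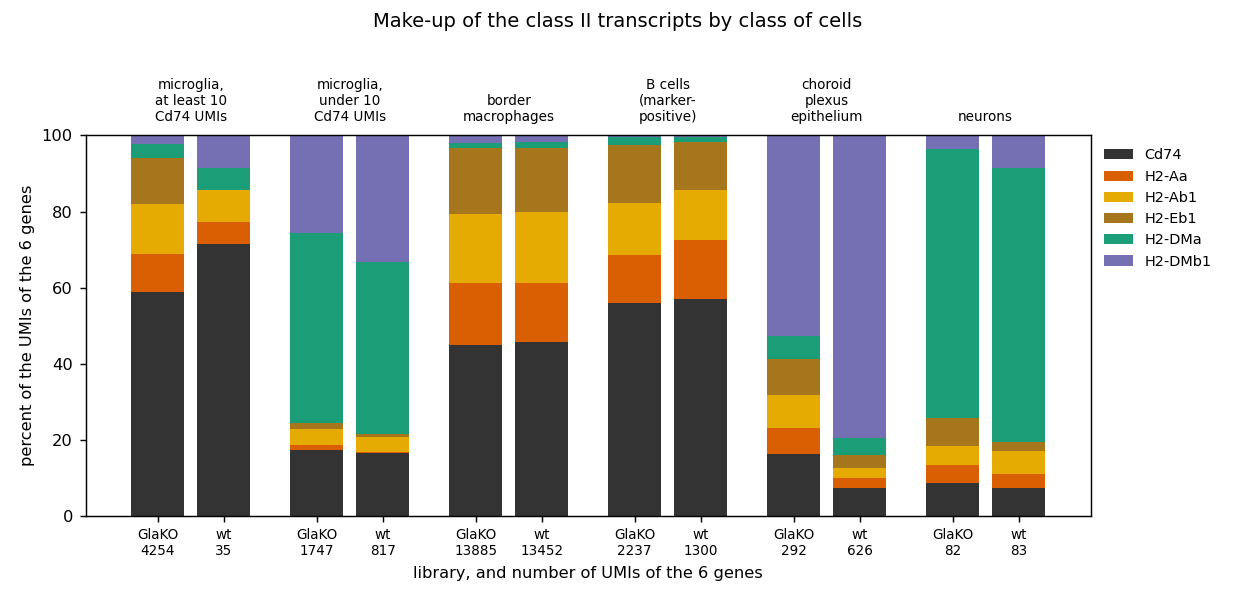
Share of each gene in the UMIs of the 6 genes, in percent, for 6 groups of cells, GlaKO left of wt, with the number of UMIs under each bar. Cd74 and the peptide-binding chains fill most of the bar in microglia with high Cd74, border macrophages and B cells, H2-DMb1 leads in choroid plexus epithelium and H2-DMa in neurons; the wt bar of microglia with high Cd74 rests on 35 UMIs from 2 cells.

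Over all cells of a library the 6 genes summed to 22849 UMIs in GlaKO and 16456 in wt, a log2 ratio of 0.58 (0.56 to 0.61). Single genes stood at 0.66 (Cd74), 0.50 (H2-Aa), 0.47 (H2-Ab1), 0.55 (H2-Eb1), 1.06 (H2-DMa) and 0.08 (H2-DMb1, −0.05 to 0.21). At least 1.5-fold higher were 2 of the 6, Cd74 and H2-DMa, beside 24.5% of the 12742 genes tested over all cells. The median log2 ratio was 0.53 over the 6 genes and 0.27 over all genes. Without choroid plexus cells the sum turned to −0.19 and Cd74, H2-Aa, H2-Ab1 and H2-Eb1 to −0.14, −0.31, −0.34 and −0.25, while H2-DMa stayed at 0.29. Choroid plexus cells made up 17.7% of the GlaKO and 47.8% of the wt library, and their part in the whole-library ratio was not tested further.

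What else set the class II microglia of the GlaKO library apart was described by setting the 39 cells with at least 10 Cd74 UMIs against the other 687. Cd74 chose the cells, so its own ratio is no finding. H2-Aa was higher in the 39 cells by 8.22 on the log2 scale (7.57 to 8.94), H2-Eb1 by 7.94 (7.40 to 8.54) and H2-Ab1 by 6.75 (6.40 to 7.12), whereas H2-DMb1 was higher by 1.62 (1.29 to 1.94) and H2-DMa by 1.30 (1.04 to 1.54). Of 5890 genes tested, 4.7% were at least 1.5-fold higher in the 39 cells and 16.7% at least 1.5-fold lower, and the median log2 ratio was −0.12.
Genes ranked by the smaller ratio of the 2 libraries were led by Lgals3 (galectin-3), at 3.20 in GlaKO, and Plaur (the urokinase receptor), at 2.22. They went on with Ifi204 (2.04), Il1b (the cytokine interleukin-1 beta, 1.56), Bcl2a1d (1.55), Fxyd5 (1.46), the class I gene H2-Q7 (2.32), Crip1 (1.43), Cd52 (1.33) and the class I gene H2-K1 (1.32), all values for GlaKO. The lowest were Taf1d (−1.19), 1700020I14Rik (−1.05), Nudcd3 (−1.01), Hfe (−1.25), Rtn4rl1 (−0.94), Ltc4s (−0.91), Hist1h1c (−0.89), Gatad2b (−1.02), Itgav (−0.88) and Fli1 (−0.87). This ranking leans on the 2 wt cells, and 1 of them alone held the 30 Lgals3 UMIs seen in them. Each of the lowest genes but Ltc4s had just 1 UMI in the 2 wt cells. Most of the 39 GlaKO cells had no UMI of several leading genes. Lgals3 and Crip1 were each found in 8 of the 39, Plaur, Ifi204, Bcl2a1d and Fxyd5 in 9, and Il1b in 11. H2-Q7 was found in 21, Cd52 in 32 and H2-K1 in all 39.
Genes were also ranked in GlaKO alone, an order added after the values were seen. Its lowest genes were Ubald1 (−3.62), Usp3 (−3.43) and Ubr1 (−3.34), each with 1 UMI in the 39 cells. Among the 15 highest, the class I heavy chain gene H2-D1 stood at 3155 CPM in the 39 cells and 901 CPM in the others, higher by 1.81 (1.71 to 1.91). Tap1, the transporter that feeds peptides to class I, was higher by 1.97, and the class I genes H2-M3 and H2-T22 by 1.97 and 1.59. The chemokine gene Ccl12 stood at 917 and 190 CPM, higher by 2.28 (2.08 to 2.47), Lpl (lipoprotein lipase) was higher by 2.31, Ifi27l2a by 2.10, AW112010 by 2.07 and Hcar2 by 1.93. Of the 39 cells, 7 had Lpl, 13 Ifi27l2a, 15 Hcar2, 16 AW112010 and 26 Ccl12. Tap1 and H2-T22 were each found in 18, H2-M3 in 27 and H2-D1 in all 39. H2-Oa, the alpha chain of H2-O, which restrains H2-DM, was found in 56.4% of the 39 cells and 15.6% of the others, higher by 2.06 (1.499 to 2.60), and its partner H2-Ob by 1.03 (0.23 to 1.75).
Genes of processing differed far less. Ctss, the cathepsin that makes the late cuts in the invariant chain, was higher by 0.43 (0.38 to 0.49), Ctsz by 0.47 and Ctsb by 0.40, while Lgmn stood at 0.02, Ctsd at −0.01 and Cst3, a cathepsin inhibitor, at −0.08. Irf1 was higher by 0.58 (0.32 to 0.84), and the interferon-gamma receptor genes Ifngr1 and Ifngr2 stood at 0.04 and 0.28. Of the microglia markers, P2ry12 stood at −0.35, Csf1r at −0.33, Fcrls at −0.81 and Sall1 at −0.08.

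**Figure D5:**
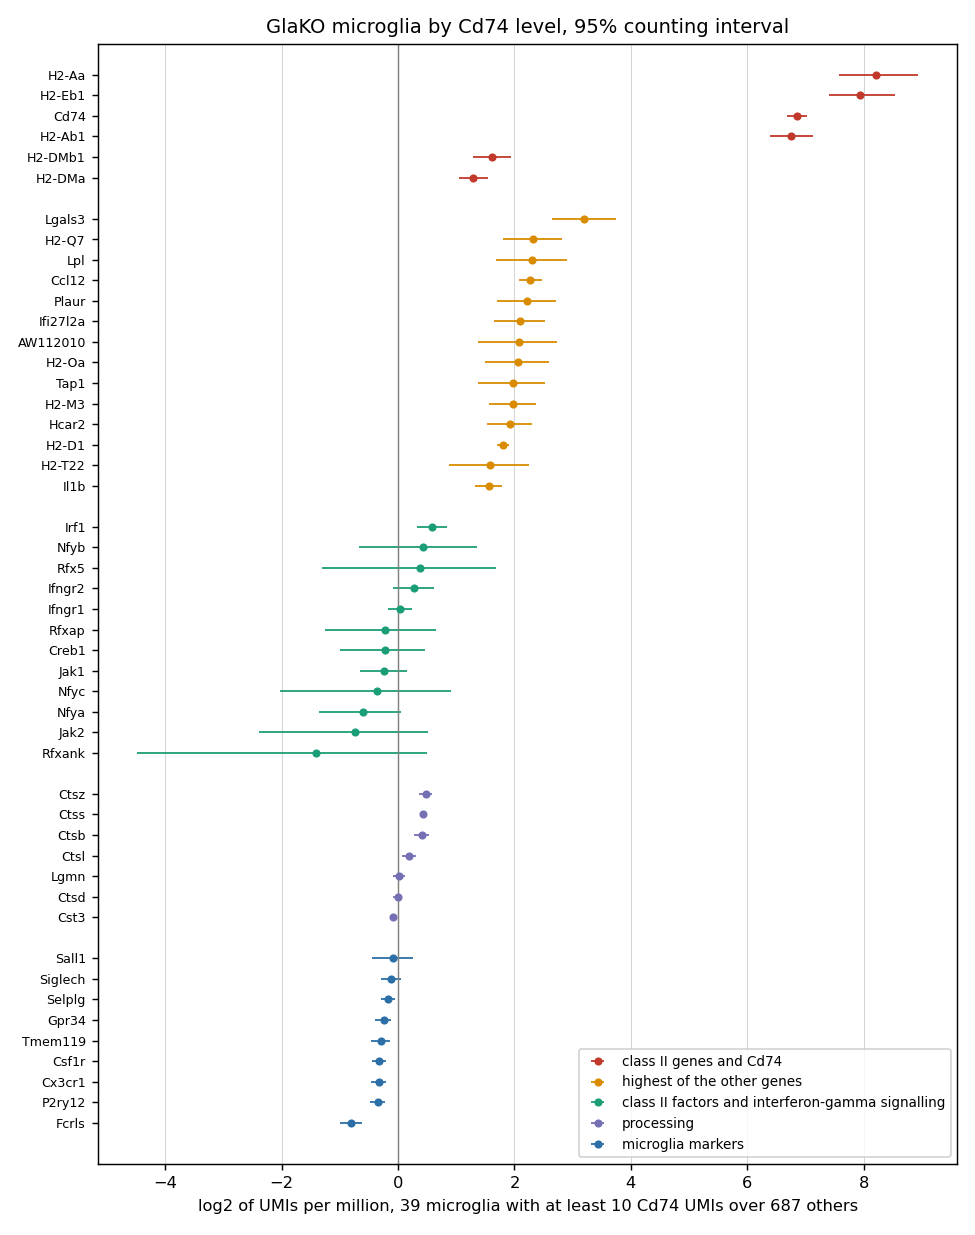
Log2 ratio of CPM between the 39 GlaKO microglia with at least 10 Cd74 UMIs and the 687 other GlaKO microglia, with 95% counting intervals, for the class II genes, the highest of the other genes, factors, processing genes and microglia markers; Cd74 chose the cells. The peptide-binding chains stand at 6.75 to 8.22, the H2-DM chains at 1.30 and 1.62, and the microglia markers between −0.81 and −0.08.

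Between the libraries, no other measured gene of the class II pathway lists reached 1.5-fold in microglia. Of the other class II genes, H2-Oa stood at a log2 ratio of −0.07 and H2-Ob at 0.22, and both were short of 1.5-fold. Of 12 measured class II transcription factors and interferon-gamma signalling genes, 0 were 1.5-fold higher or lower, 0 of 7 processing genes and 0 of 4 genes of costimulation, turnover and Cd74 partners. Over all microglia genes 2.38% were higher and 1.45% lower by this much, so that counts of 0 do not set these short lists apart. The median log2 ratio was 0.04 for the factors (Nfyb −0.57 to Irf1 0.26), −0.13 for the processing genes (Ctsz −0.20 to Ctsb 0.09, with Ctss at 0.02) and −0.24 for the costimulation list, where Cd86, a ligand for T cell costimulation, was lowest at −0.36. Ifngr1 stood at −0.11. Ciita, Ifi30, Cd80, Cd40 and H2-Eb2 are not listed in both files and were not compared. In border macrophages, 1 of 7 processing genes, Cst3, was 1.5-fold lower in GlaKO (−1.01), and of 3 measured genes of the costimulation list Cxcr4 was higher (1.92) and Cd86 lower (−0.71), where 11.1% of genes were higher and 5.46% lower.

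Across classes, the genes whose level was most like that of the 6 genes summed were those of myeloid cells and B cells. Over 22 points, each a class in 1 library, the Pearson correlation of log2(CPM + 1) was 0.977 for Cybb, the catalytic subunit of the phagocyte oxidase, 0.965 for Rnase6, 0.927 for H2-Oa, 0.907 for Themis2 and 0.899 for H2-Ob. Tnfrsf13b (0.881), Syk (0.880), Fcgr2b (0.877), Plcg2 (0.876) and Clec4a3 (0.876) followed. The points share 2 libraries and 12 classes, so the values are a description.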

How the data were processed

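Raw UMI counts per gene and barcode, as deposited by the authors, were used as they stand. Cell Ranger 6.0.1, Seurat 4 under R 4.1.3 and the build mm10 come from the submitters' processing notes, and Cell Ranger 4.0 for demultiplexing and Chromium 3.1 chemistry from the labels' protocols. The gene annotation is not given in the sources used here. Genes and barcodes had been filtered before deposit: no listed gene was seen in fewer than 7 GlaKO or 6 wt barcodes, and no barcode had fewer than 988 GlaKO or 982 wt genes.

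No barcode fell under the limit of 500 genes or over that of 20% mitochondrial UMIs. Scrublet within scanpy 1.11.5 (Python 3.11.15) marked 59 GlaKO (1.29%) and 26 wt barcodes (0.478%) as doublets, which were removed. The wt share is too low (under 0.5%) to say that the caller worked there. Removing the top 4% of doublet scores was therefore tried as well. Cells of both libraries were clustered together without class II genes (2000 variable genes, 30 principal components, 15 neighbours, Leiden resolution 1). A cluster was named from at least 3 markers of a fixed list, each in at least 10% of its cells, with a mean log2 fold of at least 1 and no lead of another type among its 10 top genes. Names mean X-like. The 61 GlaKO and 65 wt cells in no named class, and classes under 20 cells in a library, were not described.

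UMIs were summed per class. Ratios have exact conditional, levels exact Poisson and shares Clopper-Pearson 95% intervals (scipy 1.17.1), all for counting error only. The depth, a median of 6101 UMIs in GlaKO and 5054 in wt barcodes, limits detection of single transcripts. A gene counted as measured in a class at a summed count of 100. The ratio calculation was tested on simulated data. Named genes were the 6 genes, measured genes of 4 pathway lists (some list members are not reported here), the 10 most alike over classes, and the 10 highest and 10 lowest genes of Cd74-high microglia, without genes with over 50% of their UMIs in 1 cell. The genes, lists and limits were chosen with earlier results of these data known. The alternatives tried were other depth scaling, count and Cd74 limits, thinning, cluster resolution, doublet removal and leaving out clusters.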

Additional observations from a re-analysis of the deposited data

Results flagged for a closer look

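Microglia and border macrophages gave opposite directions. In microglia the log2 ratio of GlaKO over wt was 3.17 for Cd74, 6.25 for H2-Aa, 3.14 for H2-Ab1, 5.79 for H2-Eb1, 0.50 for H2-DMa and 1.85 for the 6 genes summed. In border macrophages the same values were −0.41, −0.31, −0.42, −0.35, −0.61 and −0.38. Each class has 1 library per genotype, so the difference between the classes was not tested. The border macrophage class also differed in make-up between the libraries, and the part of this in its ratios was not tested.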

How the results depend on the processing

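No paired analysis was possible because each genotype has 1 library. The sum of the 6 genes in microglia (1.85) was 0.22 without microglia of at least 10 Cd74 UMIs, by construction, and 2.05 without cluster 4, and lay between 1.79 and 1.87 under the other alternatives. The sum over all cells (0.58) was 0.34 with TMM factors, 0.52 with thinned cells, 0.27 without the top 4% of doublet scores and −0.19 without choroid plexus cells, where Cd74 was −0.14, H2-Aa −0.31, H2-Ab1 −0.34 and H2-Eb1 −0.25; the cause was not tested. The share of GlaKO microglia with high Cd74 (5.37%) was 3.86% at a limit of 20 UMIs. The wt share (0.449%) was 1.80% at a limit of 5 UMIs and 0% at 20. Any Cd74 UMI after thinning, a different measure, was found in 11.6% of GlaKO and 4.72% of wt microglia. Over all cells the GlaKO share with high Cd74 (1.84%) was 1.34% without the top doublet scores. Any UMI after thinning was found in 3.48% of GlaKO and 1.385% of wt cells, where 0.812% of wt cells had high Cd74. Ctsl in Cd74-high microglia (0.18) turned to −0.080 at 20 Cd74 UMIs. The 170 genes at least 1.5-fold higher in microglia became 690 at a minimum count of 20 and 27 at 500, and the 4 at least 8-fold higher became 8 and 3. Of the other values, 329 moved by less than their counting interval and 66 by more.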
